A study of Saccharomyces cerevisiae with 13 samples.

Results

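The ratio of nascent to total RNA was examined gene by gene in log phase *S. cerevisiae*. For each gene the read density of the nuclear run-on (NRO) libraries was divided by that of the total RNA libraries from cultures at 30°, and the log2 of this ratio was taken. Of 4280 transcript models in the deposited values, each free of overlap with a model of its own strand, 3400 had a read density above 0 in both libraries and could be ranked. The well-covered set of 2532 genes, with a summed read depth of at least 5 in NRO and at least 12 in total RNA, carries the results below. Both groups hold 3 libraries of strain BY4742, a haploid laboratory strain with deletions in HIS3, LEU2, LYS2 and URA3, grown in yeast extract-peptone dextrose. For the NRO libraries, permeabilized cells extended their stalled transcripts with biotin-16-UTP, and the labelled RNA was selected on streptavidin beads. The total RNA libraries came from aliquots of the same biotin-UTP-treated samples without the selection, so that the labelled RNA is a part of them as well. LYS2, the only one of the deleted genes with a model in the values, had 0 reads in either library.

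The authors merged the 3 libraries of each group and deposited 1 value per gene and group. There is therefore no spread between replicates and no test of any ratio, and the intervals given are exact binomial 95% intervals on reads estimated from the depth. They cover counting error only. The authors filtered out rRNA reads and alignments of low quality. The remaining reads were estimated at 2491144 in the NRO library and 894262 in the total RNA library. The medians were 207 NRO and 71 total RNA reads per well-covered gene. A read density is the depth per mappable nonintronic base, divided by all bases its library acquired, over a region that begins 200 bp after the transcription start site.

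The steady-state amount of a transcript is set by how fast it is made and how fast it is lost. NRO sequencing reports the polymerases engaged on a gene, and total RNA sequencing reports the accumulated transcript, which is mostly mature mRNA. A high ratio of transcriptional activity to steady-state level is what a short-lived transcript would give, and a low ratio is what a long-lived transcript would give. The study read the ratio in this way. By gene ontology, it found translational elongation, drug transport, signal transduction and protein phosphorylation enriched among the highest ratios. Ribosome constituents and nucleosome assembly were enriched among the lowest. It also reported that its stability estimates did not correlate with mRNA decay rates from earlier work, and that sequencing biases may compound in the ratio. In yeast, mRNAs of regulators and nutrient transporters are generally known for fast turnover, and those of ribosomal proteins and metabolic enzymes for slow turnover. No decay rate was measured here, and all values below are ratios of read densities.

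The log2 ratio of the well-covered genes had a median of -0.09, quartiles at -0.75 and 0.64, and an SD over genes of 1.06. A ratio of 2-fold or more in favour of NRO was found for 412 genes, which is 16.3% of the well-covered genes, and a ratio of 2-fold or more in favour of total RNA for 432 genes, which is 17.1%. These shares are the background for every list below. The counting interval lay entirely above a ratio of 1 for all 412 higher genes and entirely below it for 424 of the 432 lower genes. For the higher genes this outcome was set by the depth minimum. With 10.8 or more estimated total RNA reads, a 2-fold higher ratio already puts the interval above 1. At lower coverage the ratios scattered more. The 868 ranked genes outside the well-covered set had a median of 14 NRO and 5 total RNA reads and an SD of 1.91.

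**Figure D1:**
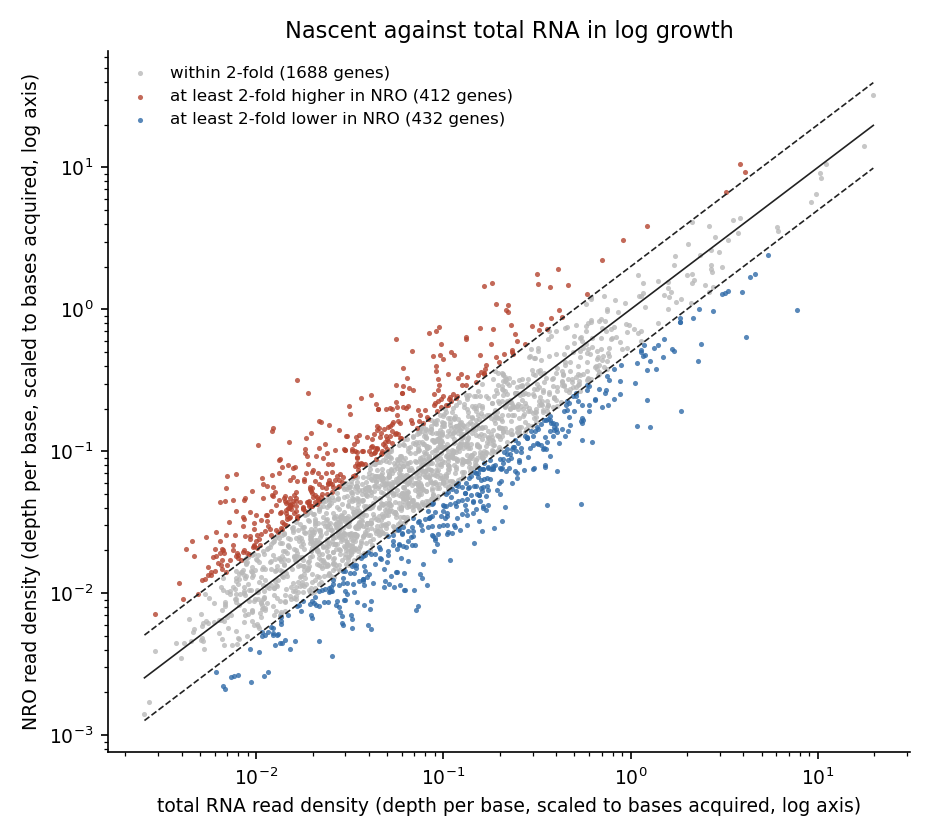
NRO read density against total RNA read density for the 2532 well-covered genes, both on log axes and in depth per base, scaled to the bases acquired in each library. The solid line marks equal densities and the dashed lines a 2-fold difference; the 412 genes above the upper dashed line and the 432 genes below the lower one are unevenly spread, with 34.3% of the genes higher and 7.50% lower in the quintile of lowest total RNA density, and 5.92% higher and 30.6% lower in the quintile of highest density.

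Among genes with at least 90% mappable bases, the 12 highest ratios included those of several regulators. RIE1, an RNA-binding protein gene (chromosome VII, 991087 to 993509 in sacCer2), had an NRO density of 0.256 against 0.0189 for total RNA. Its log2 ratio of 3.76 was the highest of this group. SKS1, a protein kinase gene (chromosome XVI, 500619 to 502043), stood at 3.45, and its 395 NRO and 13 total RNA reads gave a ratio of 10.9 with an interval of 6.30 to 20.7. The transcription factor genes among the 12 highest were VHR1 (3.24), which acts on biotin uptake genes, STP4 (3.14), and ASH1 (2.99), the daughter cell repressor of mating type switching. In a bulk culture, a transcript made at a low level in all cells and one made in few cells cannot be told apart. STP4 (chromosome IV, 366686 to 368048) was the best covered of all 12, with 4945 NRO reads against 202 total RNA reads and an interval of 7.63 to 10.2 around its ratio of 8.81. RGS2, a GTPase-activating protein of glucose signalling, stood at 3.00 (an NRO density of 0.676 against 0.0843 for total RNA). CHS1, which encodes a chitin synthase, stood at 3.13, and SFK1, which encodes a plasma membrane protein, at 2.95. The only enzyme of central metabolism in this group was IDH1, a subunit of mitochondrial isocitrate dehydrogenase (chromosome XIV, 557822 to 558917), with an NRO density of 1.53 against 0.182 for total RNA and a log2 ratio of 3.07. The uncharacterized genes YOR338W (3.57), YER158C (3.52) and YDR338C (3.00) complete the 12. Several of the 12 rest on few total RNA reads. YOR338W, VHR1 and YDR338C had 11, 12 and 13, with intervals of 6.54 to 23.9, 5.34 to 18.5 and 4.61 to 15.2 around their ratios. SFK1, YER158C and CHS1 had 19, 20 and 24 total RNA reads.

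The 12 lowest ratios were of another kind, with genes of the translation apparatus, of DNA metabolism and of mitochondria. RPS0B, a protein of the small ribosomal subunit (chromosome XII, 242233 to 243567), had an NRO density of 0.191 against 1.85 for total RNA, a ratio of 0.103. RPP1A, a stalk protein of the large subunit (chromosome IV, 309718 to 309969), had an NRO density of 0.996 against 7.75 for total RNA, and its log2 ratio was -2.96. ARC1, whose product binds tRNA and hands it to synthetases, stood at -3.09 from 399 NRO and 1217 total RNA reads. RPL24A was at -2.71 and the mitochondrial ribosomal protein gene MRPL40 at -2.73, from 23 and 13 NRO reads. Among genes of DNA metabolism, UNG1, the uracil-DNA glycosylase, was at -3.23, the replication factor CDC45 at -2.88 and the histone chaperone ASF1 at -2.85. ASF1 (chromosome X, 196421 to 197207) had 293 NRO and 761 total RNA reads, so that its ratio of 0.138 had a narrow interval of 0.120 to 0.158. RCF1, an assembly factor of respiratory supercomplexes (-3.09), MIC60, an organizer of the mitochondrial inner membrane (-2.82), PPT1, a phosphatase (-3.17), and MET22, a nucleotidase of sulfate assimilation (-2.85), made up the rest. By the paper's quantitative PCR, unlabelled total RNA makes up a small part of the NRO libraries. The ratios were not corrected for it, and its share in the lowest ones was not tested.

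To see which functions lay where, 39 lists of genes were compiled by name, and 1196 of the well-covered genes are in at least 1 of them. Of the listed genes with a ratio, 320 were below the depth minimum and enter no count. The list medians ran from a ratio of 0.502 to one of 2.06. The vacuolar proton ATPase, both ribosomal subunits, the initiation factors and the endoplasmic reticulum list had the 5 lowest medians, and the drug exporters, the MAP kinase components, the amino acid permeases, the hexose transporters and the ion transporters the 5 highest. In 20 lists the median was above that of all well-covered genes and in 19 below. Each list was wide, however, and the quartiles of most lists overlapped those of all genes.

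**Figure D2:**
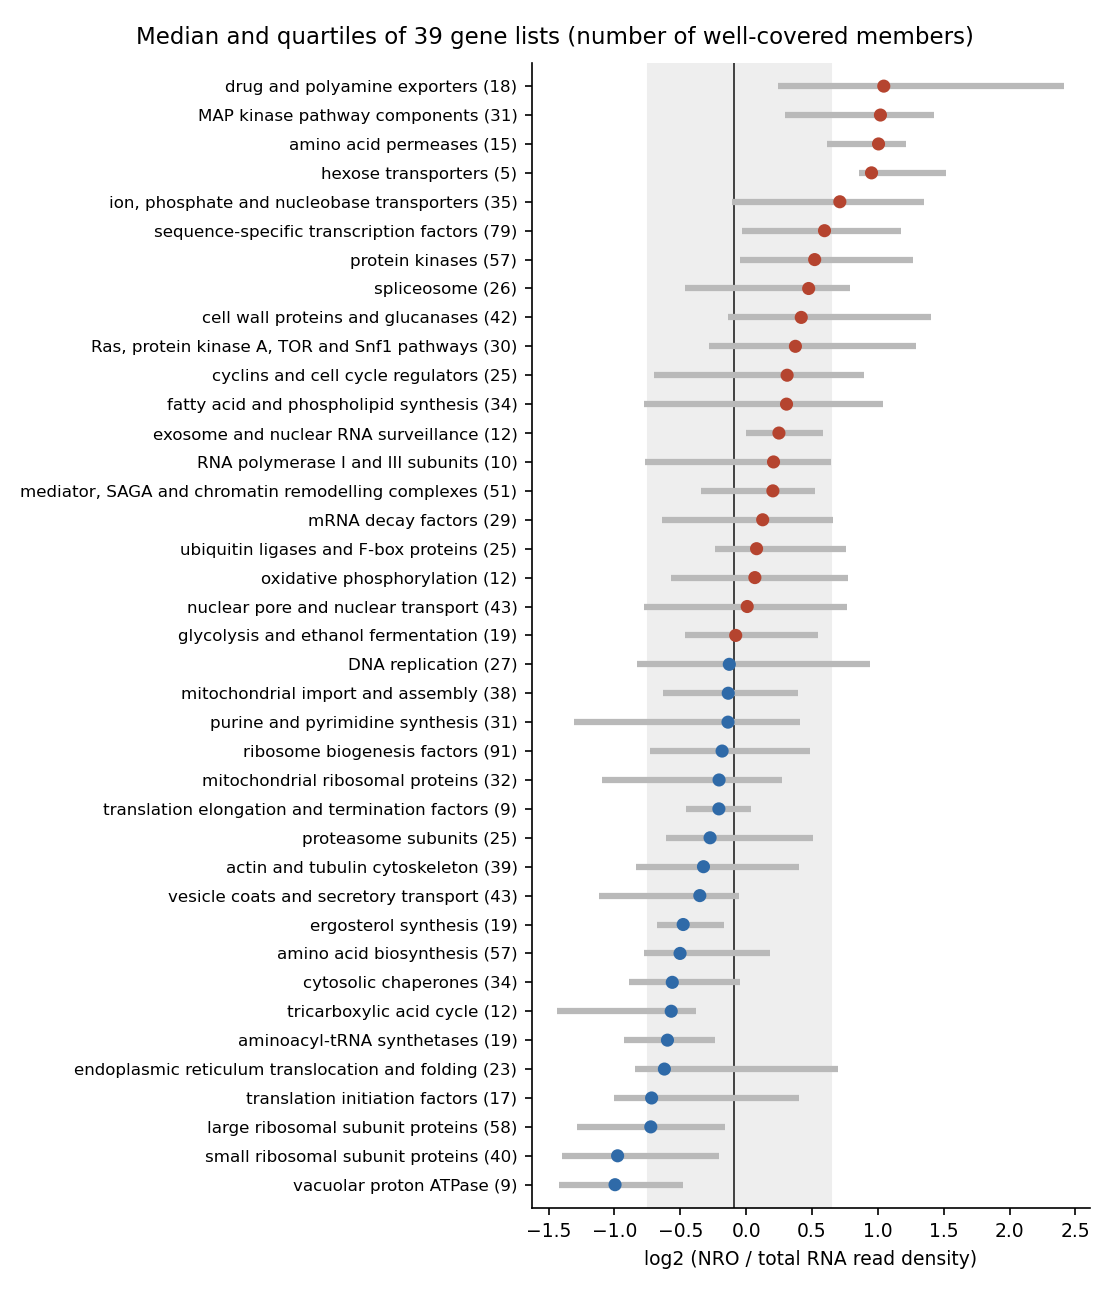
Median log2 (NRO/total RNA) of the read densities (points) and quartiles (grey bars) of 39 gene lists, with the number of well-covered members in parentheses. The vertical line is the median of all well-covered genes (-0.09) and the shaded band their quartiles; the medians run from a ratio of 0.502 for the vacuolar proton ATPase to 2.06, or 1.04 on the log2 scale, for drug and polyamine exporters.

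The ribosomal proteins were the largest set at the low end. They are encoded by 57 genes for the small subunit, 52 with a model, and by 81 for the large subunit, 73 with a model. Of the 40 well-covered genes of the small subunit, 19 were at least 2-fold lower in NRO and 1 was higher, and the median log2 ratio was -0.98. Of the 58 well-covered genes of the large subunit, 23 were lower and 1 higher, with a median of -0.72. The background share of lower genes is 17.1%, against 42.9% over both subunits together. RPS2 and RPS0A had the most total RNA reads of the small subunit, 2077 and 2068, and log2 ratios of -0.64 and -1.29. In the large subunit the same held for RPP0, the base of the ribosomal stalk, at -1.57 from 2927 NRO and 3113 total RNA reads, and RPL3 at -0.74. At the other extreme RPS29B had an NRO density of 0.477 against 0.0954 for total RNA, a log2 ratio of 2.32. RPL41A, the gene of one of the smallest ribosomal proteins, stood at 1.36. Of the ribosomal stalk genes, RPP1A (-2.96), RPP2A (-2.69), RPP2B (-2.41) and RPP0 (-1.57) were lower, while RPP1B (-0.20) was not. The stalk genes other than RPP0 and RPP1A were singled out after their values were seen.

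Most ribosomal proteins of yeast are encoded by a pair of near-identical genes, and the ratios of the copies were compared. In 31 pairs both copies were well covered, and in 19 of them the counting intervals of the copies did not overlap. The median absolute difference within a pair was 0.84 on the log2 scale, and in 11 pairs it was 1 or more. These intervals cover counting error only, and the same share was not computed for pairs of unrelated genes. Without that share, and with an SD of 1.06 over all well-covered genes, the counts cannot tell whether copies differ more or less than unrelated genes. The widest pair was RPS10, with RPS10A at -2.68 (23 NRO reads, 53 total RNA reads) and RPS10B at 0.29 (41 and 12 reads). RPS0A and RPS0B, which are both deeply covered, had log2 ratios of -1.29 and -3.28. RPL23A (-1.84) and RPL23B (0.09), RPL8A (0.30) and RPL8B (-1.28), and RPL9A (0.46) and RPL9B (-1.03) were also apart. By contrast, RPS19A and RPS19B (-1.06 and -1.20) and RPL40A and RPL40B (-1.29 and -1.27) had overlapping intervals. Both copies were lower in 9 pairs and 1 copy was lower in 10 pairs. Reads that fit both copies equally well were left out by the authors' mapping filter, and in the least mappable gene of these pairs 75.6% of the bases were mappable. The pairs other than RPS0 and RPS29 were named after their values were seen.

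**Figure D3:**
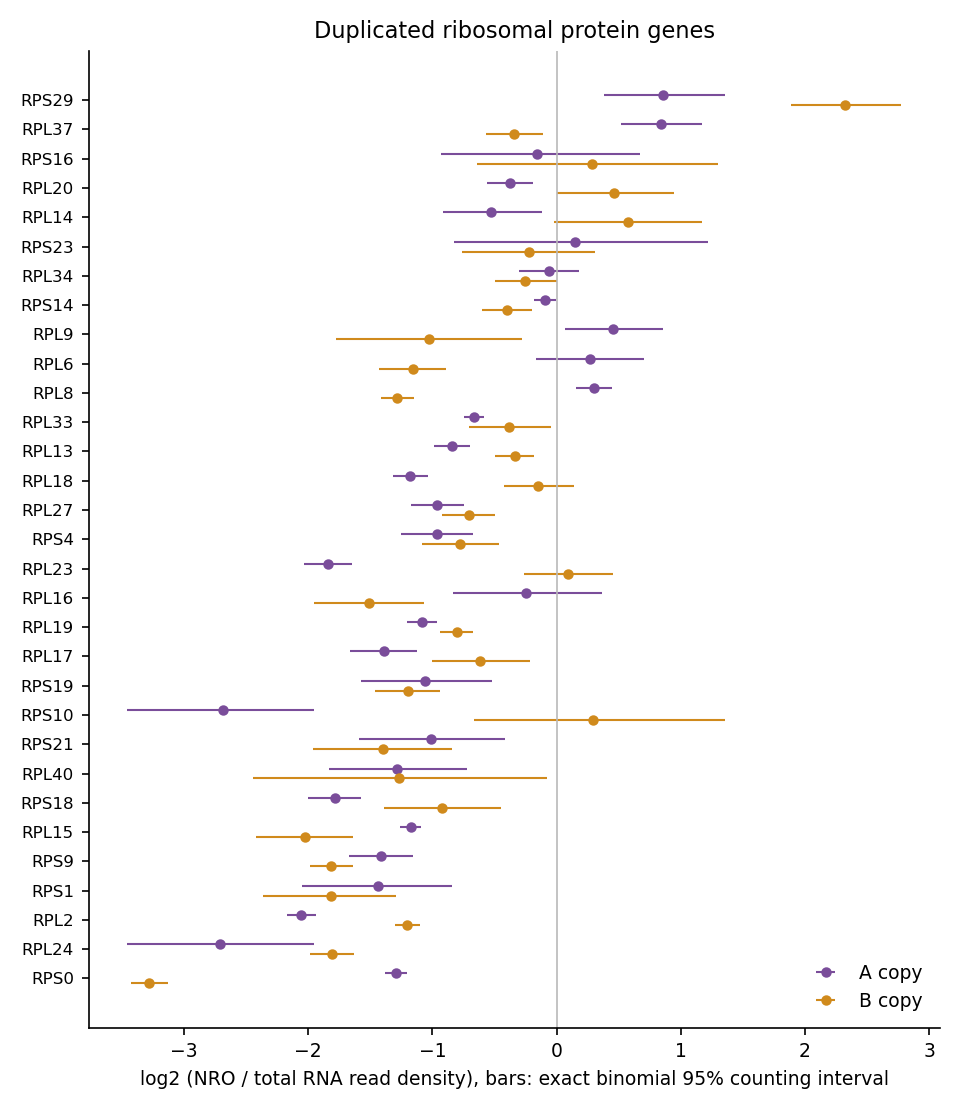
Log2 (NRO/total RNA) of the read densities for the A copy and the B copy of 31 ribosomal protein gene pairs, with exact binomial 95% counting intervals as bars. The intervals of the copies are apart in 19 pairs and overlap in 12, and RPS10 and RPS0 are the pairs whose copies lie farthest apart. The intervals cover counting error only, and the share for pairs of unrelated genes was not computed.

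Introns are concentrated in the ribosomal protein genes of yeast, and the deposited density leaves intronic bases out. The 65 well-covered ribosomal protein genes with an intron had a median of -0.80 and the 33 without one a median of -0.98. The low ratio was thus found with and without an intron. Outside the ribosomal proteins, 58 genes with an intron had a median of -0.28, with 14 lower and 4 higher, against -0.05 for the 2374 genes without one.

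Other parts of the translation apparatus were less uniform. The 17 well-covered initiation factors, which bring the ribosome to the start codon, had a median of -0.72, with 5 lower and 0 higher. TIF4631, which encodes eIF4G, was at 0.70 (3343 and 740 reads), FUN12, which encodes eIF5B, at -0.08, and PAB1, the poly(A)-binding protein gene, at -0.73. NIP1, an eIF3 subunit gene, was at -1.69 from only 13 NRO and 15 total RNA reads. TIF1, for eIF4A, was lowest at -3.67, but 27.8% of its bases are mappable since TIF2 is a near-identical copy. At a depth minimum 5 times as high, the 13 remaining factors had a median of -0.08, so that the place of this list depended on its least covered members. The 9 elongation and termination factors lay close to the middle, with a median of -0.21 and 1 gene lower. YEF3, elongation factor 3, had 18351 NRO and 6408 total RNA reads and nearly equal densities (0.04). CAM1, a subunit of elongation factor 1B, was the exception at -1.85.

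The 19 aminoacyl-tRNA synthetase genes (with ARC1), whose products charge tRNAs with amino acids, had a median of -0.60, with 3 lower and 1 higher. DPS1, the aspartate enzyme, had an NRO density of 0.497 against 1.14 for total RNA (-1.19), and TYS1, the tyrosine enzyme, was at -1.46. KRS1, the lysine enzyme, stood apart from the rest at 1.28 from 1986 NRO and 293 total RNA reads. The 91 ribosome biogenesis factors did not share the low ratios of the ribosomal proteins. Their median was -0.18, and 10 were higher and 11 lower. The RNA helicase genes DBP2 (2.22) and PRP43 (2.10) were highest, and GAR1 (-1.31), a small nucleolar RNP protein, and NOP7 (-2.13) were low. REA1, a giant ATPase that strips factors from the pre-60S particle, had the most total RNA reads and a log2 ratio of -0.47. For RNA polymerases I and III only 10 subunits were well covered. Their median was 0.21, with RPO31, the largest subunit of polymerase III, at 0.90 and RPA34, of polymerase I, at -1.47.

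The vacuolar proton ATPase, which acidifies the vacuole, had a low median that rests on 9 of its 17 models. It was a ratio of 0.502 (log2 quartiles -1.42 and -0.48), with 4 genes lower and 0 higher, but the log2 median was -0.37 over all 16 members with a ratio. VMA2 had 743 NRO and 826 total RNA reads (-1.63) and VMA4 718 and 640 reads (-1.31), both from the peripheral domain that hydrolyses ATP. VMA16, a proteolipid of the membrane ring, was lowest at -2.07. STV1, the Golgi form of the membrane subunit a, was the only member above 0, at 0.19.

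The chaperone and proteasome lists had medians below that of all genes, with shares of lower genes (17.6% and 16.0%) near the background of 17.1%. Among 34 well-covered cytosolic chaperone genes, 6 were lower and 1 was higher, and the median was -0.56. SBA1, a cochaperone of Hsp90, had an NRO density of 0.435 against 2.29 for total RNA (-2.40), and CPR6, another Hsp90 partner, was at -1.95. SSA2, a constitutive Hsp70, had 2770 NRO and 2400 total RNA reads (-1.27), with 47.1% of its bases mappable. The higher member was FES1, a nucleotide exchange factor of Hsp70, at 1.86. The 25 proteasome subunits had a median of -0.27 (0.03 as the deviation within length deciles), with 4 lower and 2 higher. The base subunits RPN1 (-2.18, 920 and 1499 reads) and RPN2 (-1.73, 962 and 1149 reads) and the catalytic subunit PRE2 (-1.99) were low, and the deubiquitinase RPN11 (1.46) and the core subunit PUP2 (1.16) were high. Genes of 1 complex therefore spanned more than 3 log2 units. The 25 ubiquitin ligases and F-box proteins had a median of 0.08. CDH1, an activator of the anaphase promoting complex, led them at 2.36, and SKP1, the adaptor common to SCF ligases, was at -1.51.

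The glycolytic and fermentative genes, among the most highly expressed of yeast, lay close to the middle with a median of -0.08, and 1 of 19 was higher and 1 lower. CDC19, pyruvate kinase, had the most reads, 53091 in NRO and 23490 in total RNA, and a ratio of 0.811 (0.799 to 0.824). PDC1, pyruvate decarboxylase, was at -0.06 (41347 and 15514 reads). The high gene was ENO1 at 2.11 (an NRO density of 0.954 against 0.220 for total RNA), whose paralog ENO2 was at -0.17, and the low gene was ADH5 at -1.33. In the tricarboxylic acid cycle, 12 genes had a median of -0.57, with 4 lower and 2 higher. The higher genes were IDH1 (3.07) and ACO1, aconitase (2.15, 2709 and 218 reads), which act at consecutive steps. The later enzymes FUM1, fumarase (-1.45), LSC2, of succinyl-CoA ligase (-1.47), and SDH4, of succinate dehydrogenase (-1.67), were lower. The 12 well-covered nuclear genes of oxidative phosphorylation had a median of 0.07. The alternative subunits COX5A (-1.15, 175 and 139 reads) and COX5B (1.53, 134 and 17 reads) of cytochrome oxidase lay on opposite sides.

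Amino acid, nucleotide and ergosterol synthesis had medians below the -0.09 of all well-covered genes, nucleotide synthesis only slightly. For amino acid synthesis the median over 57 genes was -0.50, and 12 were lower and 4 higher. TRP2, the first enzyme of tryptophan synthesis, was at -2.37. The 4 higher genes included GDH3 (1.94), a glutamate dehydrogenase, GLN1, glutamine synthetase (1.65, 10778 and 1230 reads), and the branched chain gene ILV5 (1.06, 20764 and 3582 reads). ILV3, which acts in the same pathway as ILV5, was at 0.17. For purine and pyrimidine synthesis the median over 31 genes was -0.14, with 15 genes above and 16 below the median of all genes. This list was split, with 11 lower and 2 higher. URA2, the first enzyme of pyrimidine synthesis (1.27), and IMD2, IMP dehydrogenase (1.24), were high, DUT1, the dUTPase (-1.82), and PRS2, a phosphoribosyl diphosphate synthetase (-1.91), were low, and ADE3 (0.24) and ADE6 (0.15) were near the middle. In ergosterol synthesis 3 of 19 genes were lower (15.8%, near the background of 17.1%) and 2 higher (median -0.48). The highest was ARE2, which esterifies sterols (1.97), and the lowest was ERG27 (-1.20).

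Lipid synthesis differed from these pathways. The 34 genes of fatty acid and phospholipid synthesis had a median of 0.31, with 10 higher (29.4%) and 4 lower. OLE1, the fatty acid desaturase, had an NRO density of 0.708 against 0.0918 for total RNA, a log2 ratio of 2.95 with 2914 and 136 reads. FAA4, an acyl-CoA synthetase, was at 2.50 (10159 and 643 reads). FAS2, a fatty acid synthase subunit, was near 0 at 0.12, and ACC1, acetyl-CoA carboxylase, was at 0.55. CPT1 (-2.15, 34 and 54 reads) and CHO1 (-1.80, 16 and 20 reads) of phospholipid synthesis were low.

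**Figure D4:**
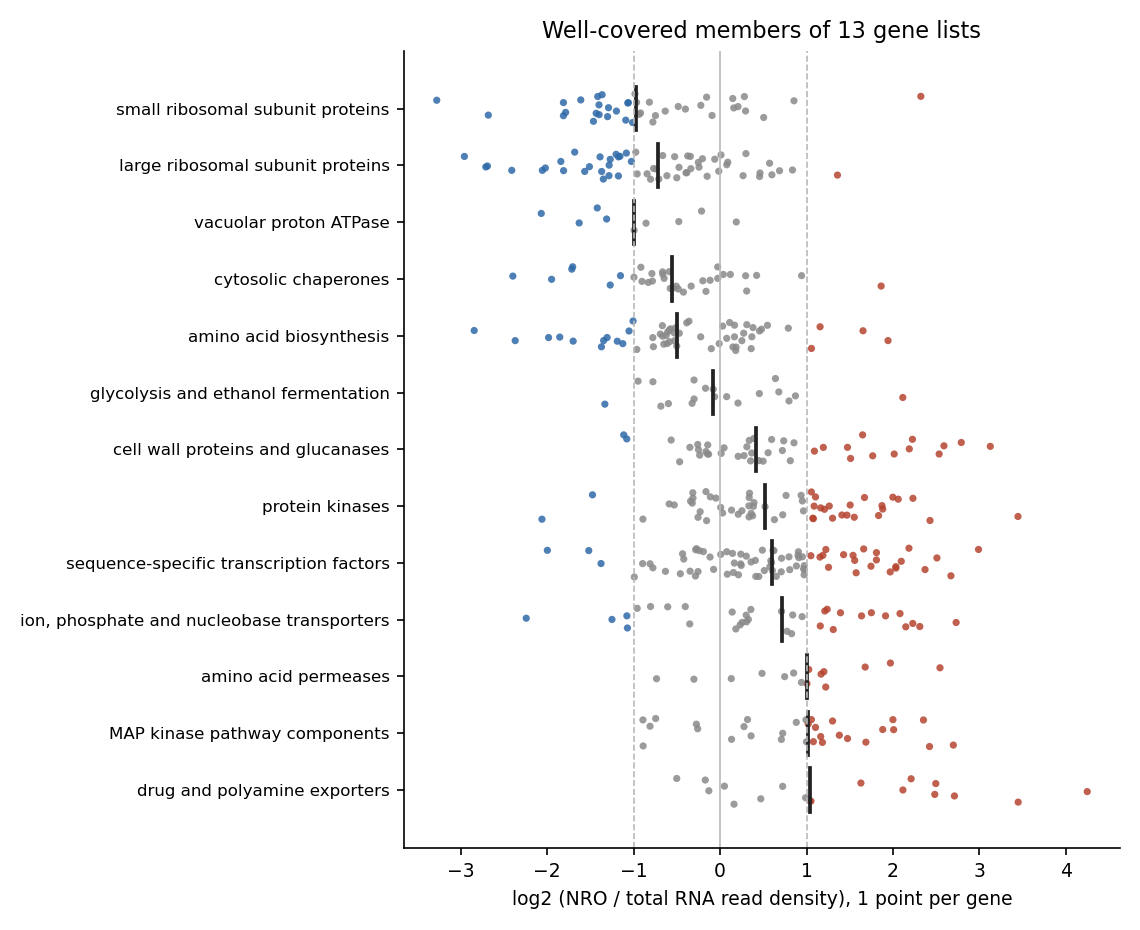
Log2 (NRO/total RNA) of the read densities of each well-covered member of 13 gene lists, 1 point per gene, with a black line at the list median and dashed lines at a 2-fold difference (red, higher in NRO; blue, lower). Points were spread vertically for visibility; 10 of 18 drug and polyamine exporters and 16 of 31 MAP kinase pathway components lie at or beyond the upper line and none beyond the lower one.

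The lists of exporters, amino acid permeases, hexose transporters and ion transporters lay at the high end. Of 18 well-covered drug and polyamine exporters 10 were higher and 0 lower, with a median of 1.04. TPO2 and TPO3, polyamine exporters, were highest, at 4.25 and 3.45, and TPO3 had 2443 NRO and 80 total RNA reads. They are related in sequence, with 71.0% and 73.4% of their bases mappable. PDR5, the major multidrug pump, had the most total RNA reads and a smaller log2 ratio of 0.72 (8411 and 1828 reads), and TPO1 stood at 1.04. QDR2 was lowest at -0.50.

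Amino acid permeases behaved alike as a group: 8 of 15 were higher, 0 were lower, and the median was 1.00. TAT1, a permease of tyrosine and other amino acids, had an NRO density of 0.565 against 0.0969 for total RNA (2.54), and LYP1, the lysine permease, was at 1.97. TAT2 (0.49) and GNP1 (0.13), with the most total RNA reads, were closer to 0, and MMP1 was lowest at -0.74. Of the hexose transporter family 5 of 9 models were well covered. The low affinity transporters HXT3 (2.89, 1982 and 96 reads) and HXT1 (0.95, 396 and 74 reads) and the glucose sensors RGT2 (1.52) and SNF3 (0.86) had high ratios, and HXT2 was at -0.05 from 35 and 13 reads. Among 35 transporters of ions, phosphate and nucleobases 13 were higher (37.1%) and 4 lower, and the median was 0.71. FET4, a low affinity iron transporter (2.73), and the phosphate transporter PHO89 (2.31) led, and PMA1, the proton pump of the plasma membrane, had 33484 NRO and 6225 total RNA reads and a ratio of 1.93 (1.88 to 1.98). MID1, a calcium channel component, was lowest at -2.24.

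Signalling genes had the same direction. Of 31 components of the MAP kinase pathways, which carry the pheromone, osmolarity and cell wall signals, 16 were higher (51.6%, against a background of 16.3%) and 0 lower. Their median was 1.02. The highest members were the osmosensor HKR1 at 2.70 (2787 and 154 reads) and the cell wall sensor MID2 at 2.42 (only 179 and 12 reads). The mucin MSB2 had 3627 NRO and 573 total RNA reads (1.18). DIG1, a nuclear inhibitor of the pheromone response, was at 0.99. RHO1, a small G protein, and MKK2, a MAP kinase kinase, were lowest, both at -0.89. Among all 57 protein kinases 22 were higher (38.6%) and 2 lower, with a median of 0.52. SKS1 (3.45) and CMK2, a calmodulin-dependent kinase (2.43), led, the casein kinases YCK1 and HRR25 had the most total RNA reads at 0.63 and -0.11, and NPR1, a kinase that regulates permeases, was lowest at -2.06. In the nutrient pathways of Ras, protein kinase A, TOR and Snf1, 10 of 30 genes were higher and 4 lower (median 0.37). RGS2 (3.00) and AVO1, a subunit of TOR complex 2 (2.40), had the highest ratios, BCY1, the inhibitory subunit of protein kinase A, was at 0.20, and SRV2 of the adenylate cyclase complex was at -0.83.

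The sequence-specific transcription factors form the second largest list, with 79 well-covered genes. Of these 22 were higher (27.8%) and 3 lower, and the median was 0.59. Besides ASH1 (2.99), TYE7, an activator of glycolytic genes, was at 2.67 (887 and 50 reads). DOT6, a repressor of ribosome biogenesis genes, had an NRO density of 1.44 against 0.369 for total RNA, with 8604 NRO and 789 total RNA reads (1.97). MCM1, which has the most total RNA reads of this list, was close to equal at 0.14, and the lowest were the multifunctional factor CBF1 (-1.52) and the forkhead factor FKH1 (51 and 73 reads, a ratio of 0.250). Cyclins and cell cycle regulators had a median of 0.31, with 6 of 25 higher and 4 lower. CLN3, the most upstream G1 cyclin, stood at 2.59 (1156 and 69 reads). CLB3, a mitotic cyclin (-1.30), and CKS1, a subunit of the cyclin-dependent kinase (-2.55), were lowest, and WHI3, an RNA-binding protein that restrains CLN3, was at 1.07. General coactivators and chromatin remodellers did not share the height of the sequence-specific factors. The 51 genes of mediator, SAGA and remodelling complexes had a median of 0.20, with 5 higher and 5 lower. They ran from MED8 at 2.27 (only 148 and 11 reads) to SRB2 at -2.69, both of mediator. SSN3, the mediator kinase, was at 1.67, and SPT8 of SAGA (590 and 636 reads) at -1.59.

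The cell wall genes included several of the most abundant transcripts with a high ratio. Of 42 well-covered genes 13 were higher (31.0%) and 2 lower, and the median was 0.42. SED1 and HSP150, structural mannoproteins, had densities of 10.6 and 9.29 in NRO and of 3.82 and 4.06 in total RNA, with log2 ratios of 1.47 and 1.19. CHS1 (3.13) and SKN1, of glucan synthesis (2.79), were highest, and CWP1, another mannoprotein, was at -1.08. The secretory pathway that delivers these proteins was on the other side. Of 43 genes of vesicle coats and transport 13 were lower (30.2%) and 1 was higher, and the median was -0.35. APL5, an adaptor subunit (-2.39), the Rab protein gene SEC4 (-2.12) and SEC7, the Arf exchange factor (-1.09, 2432 and 1860 reads), were lower. COG6, a Golgi tether, was the higher one at 1.95, and SEC31 of the COPII coat was at -0.35. The 23 genes of translocation and folding in the endoplasmic reticulum had a median of -0.62. They were spread from ERO1, the thiol oxidase (2.05), to SCJ1, a J-domain protein (-1.70), with the translocon gene SEC61 at -0.70. In the cytoskeleton 8 of 39 genes were lower and 2 higher (median -0.32), with TPM1, tropomyosin, at -1.49 (1430 and 1442 reads), ABP1, an actin-binding protein, at -1.14, BIM1, a microtubule plus end protein, at -1.94, and STU1, which binds spindle microtubules, at 1.38.

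Genes of RNA metabolism held wide extremes. Of 29 mRNA decay factors 7 were higher and 3 lower, with a median of 0.13. RIE1 (3.76) and the Puf family gene JSN1 (2.41) were highest, CCR4, the main deadenylase, was at 0.14, and NMD2, of nonsense-mediated decay (-1.55), and CAF40 of the deadenylase complex (-1.57) were lowest. The exosome and nuclear surveillance list had 2 of 12 genes higher and 0 lower (median 0.25), with the catalytic subunit DIS3 at 1.55 and NAB3, a termination factor, at -0.19. In the spliceosome list 6 of 26 genes were higher and 2 lower (median 0.47), although at a depth minimum 5 times as high the 5 genes left had a median of -0.26. The helicase gene PRP2 was highest at 2.18 and STO1, a cap-binding protein gene, lowest at -1.57 from only 15 and 16 reads. Nuclear pore and transport genes had 8 of 43 higher and 8 lower around a median of 0.01. POM33, a nucleoporin, was at 2.93 from 317 and 15 reads and SUB2, an mRNA export helicase, at -2.02 from 141 and 204. Similarly, DNA replication genes had 7 of 27 higher and 6 lower (median -0.13). POL1, the catalytic subunit of polymerase alpha (1.60, only 125 and 15 reads), and MCM3 (1.11, 2591 and 430 reads) were high. MCM6, of the same helicase as MCM3, was at -0.30, and RAD27 (-1.75) was low with CDC45.

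The nuclear genes of mitochondrial proteins were of interest because many of their mRNAs carry a binding site of Puf3, an RNA-binding protein that in yeast localizes such mRNAs and, in glucose, hastens their decay. The core of the site, TGTANATA, was searched on the transcript strand in the 200 bases after the stop codon in the R64 assembly of RefSeq. It was present in 844 of 6021 protein-coding genes (14.0%, and 13.2% on the opposite strand, which takes no part in the mRNA). It was found in 75 of 76 mitochondrial ribosomal protein genes (98.7%, against 18.4% on the opposite strand) and in 63 of 85 genes of mitochondrial import and assembly (74.1%), but in 4.94% of the genes of the large cytoplasmic subunit. Of the well-covered members with the motif, the 4 with the most total RNA reads in each list are shown. Capitals mark the motif, and the coordinates are those of R64.
MRPS12, chrXIV:694269-694298, minus strand: atacaacctttTGTAAATAgcaatgaccat
MRPL8, chrX:315714-315743, minus strand: gtgtattccctTGTAAATAtatagatgaca
RML2, chrV:59531-59560, minus strand: gtccacaatcaTGTAAATAtaaatattgaa
IMG1, chrIII:209863-209892, minus strand: cacccatctccTGTATATAagaaaaatagt
HSP60, chrXII:663207-663236, minus strand: ttttattatctTGTAAATAcaatgtgaaaa
TIM44, chrIX:312502-312531, plus strand: cctattccgctTGTAAATAactccgttatg
MDJ1, chrVI:104666-104695, minus strand: atgcaatttctTGTAGATAaggaaaaatag
TIM23, chrXIV:663650-663679, plus strand: ctgatggcgctTGTATATAgcatttgaaaa

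These genes were chosen by their total RNA reads, the denominator of the ratio, and all 8 had a higher density in total RNA. MRPS12, a small subunit protein whose motif begins 74 bases after the stop codon, had an NRO density of 0.273 against 0.674 for total RNA (-1.30). RML2 and IMG1, of the large subunit, were at -1.22 and -1.08, and MRPL8 at -0.81. Among the import genes HSP60, the matrix chaperonin, was at -1.44 (701 and 684 reads), the import motor subunits TIM44 and MDJ1 were at -0.75 and -0.95, and TIM23, the inner membrane channel, was at -0.38. The 32 well-covered mitochondrial ribosomal protein genes had a median of -0.21 with 9 lower and 2 higher, among them MRPL4 (1.54) and MRPL9 (-2.11). At a depth minimum 5 times as high, 11 of them remained with a median of -1.08. The 38 import and assembly genes had a median of -0.14, with 5 higher and 5 lower. They ran from COX17, a copper chaperone (2.27, 214 and 16 reads over 135 bases), and COX19 (2.23) to PAM16, of the import motor (-2.15). SSC1, the matrix Hsp70, had 6480 NRO and 2084 total RNA reads at 0.16.

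Over all well-covered genes the motif went with little difference in the ratio. The 380 genes with the motif had a median of -0.13, with 13.9% higher and 19.7% lower. The 2150 genes without it had a median of -0.08, with 16.7% higher and 16.6% lower. Within both mitochondrial lists together, 61 genes had the motif and a median of -0.15, and only 9 lacked it. A match of these letters is not a measured binding site.

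The ratio also varied with the level and the length of the gene. With total RNA density, which is its own denominator, the Spearman correlation was -0.34, and the median was 0.52 in the lowest quintile of density and -0.60 in the highest. Across the 2532 genes, the Spearman correlation of the log2 ratio with the number of mappable nonintronic bases was 0.30, a description over genes that share the same pair of libraries. In the quintile of shortest regions, of 90 to 763 bases, the median was -0.46, and 27.4% were lower and 6.31% higher. In the quintile of longest regions, of 2423 to 14813 bases, the median was 0.37, and 7.51% were lower and 26.7% higher. Ribosomal protein regions are short (medians of 494 and 515 bases in the large and small subunit), whereas those of kinases and exporters are long (2312 and 2227 bases). Relative to the median of all well-covered genes, the large subunit list stood at -0.64 and the small subunit list at -0.89. Taken as the deviation from the median of genes in the same length decile, these medians were -0.30 and -0.68. The decile medians include the list members themselves, which draws the deviations of a large list of short genes towards the middle. Within length deciles the kinases were at 0.56, the MAP kinase components at 0.69, the exporters at 0.80, the permeases at 0.79 and the vacuolar ATPase at -0.73. Of the 39 lists 32 remained on the same side of the middle. The proteasome, mitochondrial ribosomal protein, mitochondrial import, mRNA decay, nuclear pore, ubiquitin ligase and RNA polymerase I and III lists changed sides.

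The label of the NRO libraries is a uridine analogue, and the share of T in the coding strand was therefore compared. The Spearman correlation with the log2 ratio was 0.07 over 2530 genes. The median was -0.27 in the quintile with the least T and 0.05 in that with the most. Transporter genes are rich in T, with medians of 32.8% for permeases and 31.7% for exporters. As the deviation from genes in the same decile of T content, their medians were 0.89 and 0.93, and 36 of the 39 lists remained on their side. Genes with a codon usage more like that of the glycolytic genes had lower ratios, with a correlation of -0.16 over 2511 genes and medians of -0.36 in the top quintile and 0.12 in the bottom one. The parts of length, T content and codon usage in the list medians were not separated further.

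The heat shock libraries, from cultures after 20 min at 39°, give the same ratio from separate libraries, and 1823 of the well-covered genes had at least 10 estimated reads in both of them. The Spearman correlation of the ratio at 30° with that at 39° was 0.52 over these genes. Of the 307 genes that were higher at 30°, 271 had an NRO (HS) density above that of total RNA (HS) (88.3%, against 59.5% of all 1823), and of the 283 lower genes 216 had one below it (76.3%, against 40.5%). The median of all these genes was -0.07 at 30° and 0.21 at 39°. At 39° the exporters were at 0.57, the MAP kinase components at 0.64, the permeases at 0.29, the transcription factors at 0.55 and the chaperones at -0.46. The large subunit proteins, at -0.77 at 30° for the same 43 genes, were at 0.34, and the small subunit proteins were at -0.89 and -0.13 over 22 genes. Ribosome biogenesis factors were at -0.33 at 30° and 0.59 at 39°. The large subunit and ribosome biogenesis lists thus went from below the median of all these genes to above it, while the small subunit list stayed below. The ribosomal protein genes differed by intron at 39°. The 42 with an intron had medians of -0.73 at 30° and 0.47 at 39°, and the 23 without one -1.18 and -0.50. The order of the lists at 30° was kept in part at 39°, and no test of these differences was possible with 1 pooled value per gene.

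**Figure D5:**
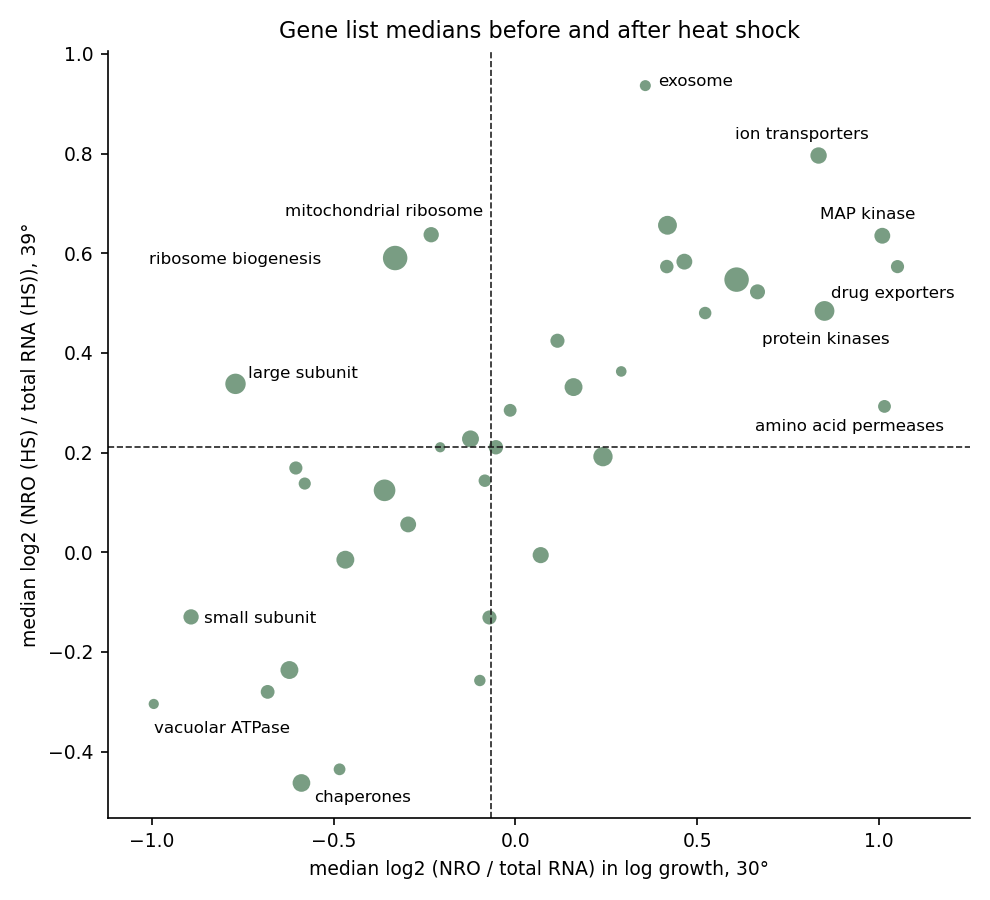
Median log2 (NRO/total RNA) of the read densities at 30° (horizontal) and after 20 min at 39° (vertical) for the gene lists with at least 5 members that have 10 or more reads in both heat shock libraries; point area grows with the number of genes. The dashed lines are the medians of all 1823 such genes, -0.07 and 0.21, and the lists of the large ribosomal subunit, ribosome biogenesis and the mitochondrial ribosome lie left of the vertical line and above the horizontal one.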

How the data were processed

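NRO and total RNA libraries from log growth, 3 each, were analysed as the authors pooled them. Per the methods, the authors aligned reads to sacCer2 with Maq, kept alignments of high mapping quality, left out rDNA and merged replicates. The authors deposited coverage (signal) for each model: its depth summed over mappable nonintronic bases, the number of these bases, and the read density. Of the coverage columns, 5 in each file were not used. Estimated reads are the depth over the value of 1 base and over the read length (36 bases for NRO and 38 for total RNA), both recovered from the low depths. The methods give 36 bases for all reads, but 79.0% of the low total RNA depths were whole multiples of 38 bases and 2.08% of 36. At 36 bases the total RNA reads would number 943943 in place of 894262. The paper's own count of filtered total RNA reads is closer to 943943. The ratios rest on the deposited densities and not on reads. Region coordinates are in sacCer2; names, coding sequences and motif sites come from RefSeq R64, in which 4259 of 4280 models were found. The 1 NRO library from 3′ ends was not analysed here.

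Genes at a log2 ratio of at least 1 or at most -1 were called, without a test. Named are the 12 highest and 12 lowest well-covered genes with at least 90% mappable bases, in each list the 2 highest, the 2 lowest and the 2 with the most total RNA reads, and 4 motif genes per mitochondrial list. ENO2, RPP1B, RPP2A, RPP2B and the ribosomal protein pairs were named after their values were seen. The genes and lists were chosen with earlier results of these data known. The steps were tested on simulated data. Analyses ran in Python 3.11.15 with scipy 1.17.1, pandas 2.3.3 and numpy 2.4.6, and figures were drawn with matplotlib 3.10.9.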

Additional observations from a re-analysis of the deposited data

How the results depend on the processing

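No paired analysis was possible because the tables used here hold 1 value per gene pooled over the 3 libraries of a group, and for the same reason no library could be left out. With all 3400 ranked genes 742 were at least 2-fold higher and 645 lower, and with a depth minimum 5 times as high 183 were higher and 266 lower of 1454. The median of all genes was -0.012 with all ranked genes, -0.22 at the higher depth minimum and 0.00 after centring on it. The other counts, under centring, a pseudocount of 0.01, at least 90% mappable bases, regions of at least 500 bases and a counting interval beyond 1, stayed within 1.5 times those reported. For the higher genes the counting interval could not change the count, since the depth minimum already puts it above 1. Of 312 list medians recomputed, 309 stayed within the exact binomial interval of the median as reported, which is wide for short lists, and centring shifts all lists alike. The exceptions were the large ribosomal subunit within length deciles (-0.30, a centred deviation set against the uncentred interval), and at the higher depth minimum the mitochondrial ribosomal proteins (-1.08) and mitochondrial import and assembly (-0.47). Within these wide intervals, 4 medians still moved by over 1.5 times: the vacuolar proton ATPase with all ranked genes (-0.37), and at the higher depth minimum the initiation factors (-0.08), the spliceosome (-0.26, 5 genes) and the hexose transporters (1.92, 2 genes). The comparison within deciles of T content and the heat shock medians without a minimum of 10 reads were chosen after seeing the data, and all 39 medians of each stayed within these intervals. At the higher depth minimum 34 of the 39 lists lay on the same side of the median of all genes, and initiation factors, elongation factors, spliceosome, nucleotide synthesis and DNA replication did not. The median width of the counting interval, its upper over its lower bound, was 1.78 in the well-covered genes and 13.5 in the ranked genes outside this set.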
